A study of Mus musculus with 36 samples.

Results

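Genes that act in G2 and mitosis were followed through a 24 h time course in a mouse pre-B cell line. The set is a list of 49 gene symbols, drawn up with earlier results of these data known, and all 49 were present among the 12762 genes of the expression table. The cells are B3, a mouse pre-B cell line. Cells of the Ikaros line were transduced by retrovirus with HA-tagged wild type Ikaros fused to ERt2, a domain of the estrogen receptor, and IRES-GFP, and 4-hydroxy-tamoxifen (4-OHT) sends the fusion into the nucleus. Control cells received the ERt2 vector lacking Ikaros. Sampling at 0, 2, 6, 12, 18 and 24 h gave 12 groups of 3 libraries, and each line is a transduced culture of the same parental line. The labels give 0.5 uM 4-OHT for all 36 libraries, 0 h included, while the methods of the study describe cells at 0 h as free of drug and collected on separate occasions. A comparison with 0 h therefore also compares collection occasions.

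Cells that leave S phase prepare for division by activating the kinase CDK1 with B-type cyclins. Mitotic kinases, kinetochores, the spindle and condensins then separate the chromosomes, and the anaphase-promoting complex (APC/C) ends mitosis by marking cyclins and other proteins for destruction. Transcription of these genes peaks late in the cell cycle, through NF-Y bound to CCAAT boxes and through the MuvB complex, which binds the cell cycle genes homology region (CHR) with B-Myb and FoxM1 in dividing cells and with E2F4 and the p107 and p130 proteins in the DREAM complex of resting cells. Ikaros is a zinc finger transcription factor that promotes the transition of large cycling pre-B cells to small resting ones.

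Expression is given on the log2 scale of the deposited table, so a difference of 1 is a doubling, and levels are relative to a constant added to the whole table. A gene was called when its adjusted p in limma was under 0.05, with p-values adjusted over all 12762 genes. Sequencing depth cannot be read from values of this kind, and precision rests on 3 libraries per group. Ikzf1, the gene that encodes Ikaros, was at 14.58, 14.61 and 14.65 in control libraries at 24 h and at 20.93, 20.48 and 20.72 in Ikaros libraries, above every control library. Of the pre-B markers, Cd79a, Cd79b, Pax5, Ebf1, Igll1, Vpreb1 and Il7r ranked at or above the 89.5 percentile of mean expression, whereas Dntt, Rag1 and Rag2 lay between the 16.7 and 42.1 percentiles. Of 10 markers of T, myeloid and erythroid cells, 6 were not among the genes of the table and the other 4 lay at or below the 14.6 percentile of mean expression. Across the 36 libraries Lyz2 ranged from 3.91 to 9.86, Itgam from 3.66 to 9.99, Klf1 from 6.07 to 8.60 and Epor from 5.10 to 7.35. At 18 h, 1 of these 4 was called higher, by 4.52, and 1 lower in Ikaros cells (29% and 29.2% of all genes). In a bulk culture a smaller share of cells in G2 and M and less RNA of these genes per cell cannot be told apart.

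Promoter sequence is shown first because these genes are known to share promoter elements and because the sequences belong to members that moved in opposite directions. Windows of 250 bases before to 50 bases after the start were taken from RefSeq on GRCm38.p6, and 43 of the 49 genes had one. Ccnb2 rose most among members with a CHR at 24 h, Cks1b fell most, and Cdk1 encodes the kinase at the centre of the module. The windows lie on the minus strand at chr9:70421505-70421804 for Ccnb2, chr10:69352863-69353162 for Cdk1 and chr3:89418242-89418541 for Cks1b, and are printed 5′ to 3′ in the direction of transcription. Capitals mark TTTGAA and CCAAT in either orientation.
Ccnb2: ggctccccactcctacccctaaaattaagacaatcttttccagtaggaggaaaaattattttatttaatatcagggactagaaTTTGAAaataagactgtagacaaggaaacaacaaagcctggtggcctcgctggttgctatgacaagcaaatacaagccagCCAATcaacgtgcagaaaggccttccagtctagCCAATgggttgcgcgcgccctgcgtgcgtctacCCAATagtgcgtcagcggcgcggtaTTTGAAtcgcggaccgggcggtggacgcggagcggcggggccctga
Cdk1: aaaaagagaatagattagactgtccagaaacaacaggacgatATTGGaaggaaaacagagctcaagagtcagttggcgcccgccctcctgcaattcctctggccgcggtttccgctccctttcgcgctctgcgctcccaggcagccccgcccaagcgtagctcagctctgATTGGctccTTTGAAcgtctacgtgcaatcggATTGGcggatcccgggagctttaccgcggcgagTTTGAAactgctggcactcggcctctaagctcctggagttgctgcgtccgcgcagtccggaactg
Cks1b: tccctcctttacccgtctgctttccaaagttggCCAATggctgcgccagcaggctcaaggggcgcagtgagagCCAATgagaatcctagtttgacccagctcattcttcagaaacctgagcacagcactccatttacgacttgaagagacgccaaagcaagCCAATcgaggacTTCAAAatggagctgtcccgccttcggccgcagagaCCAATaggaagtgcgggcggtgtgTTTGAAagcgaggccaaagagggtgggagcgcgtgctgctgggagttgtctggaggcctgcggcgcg

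All 3 windows hold a CHR near the start and several CCAAT boxes upstream of it. In the Ccnb2 window CCAAT boxes begin 87, 54 and 21 bases before the start and a TTTGAA begins 4 bases after it, with another 167 bases before. In the Cdk1 window, TTTGAA begins 71 and 15 bases before the start, between and after CCAAT boxes read from the opposite strand at 80 and 48 bases. Cks1b has TTTGAA at 17 bases before the start, the same letters in the other orientation at 77 bases, and 4 CCAAT boxes. Ccnb2 and Cks1b were picked for a CHR and for opposite directions at 24 h, so that contrast is set by the choice and is not a result.

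The CHR was common throughout the set. TTTGAA or TTCGAA on either strand was found in 33 of 43 members (76.7%), against 21.7% of the 27025 genes with a promoter window and 16.5% of the 8586 genes of the expression table that have one. CCAAT was found in 33 of 43 members (76.7%) and in 41.1% of all genes with a window. A CHR together with at least 2 CCAAT boxes occurred in 22 of 43 members (51.2%) and in 2.68% of all genes. Among 69 other mitotic genes 53.6% held a CHR, 60.9% a CCAAT box and 21.7% a CHR with at least 2 boxes. Among 30 S phase genes 20% held a CHR and 70% a CCAAT box. TGGGAA, the core of the Ikaros motif, was found in 32.6% of members and 28.3% of all genes. The TTTGAA and CCAAT matches do not overlap in the windows printed, and a match is a description of the sequence, not a bound site.

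**Figure D1:**
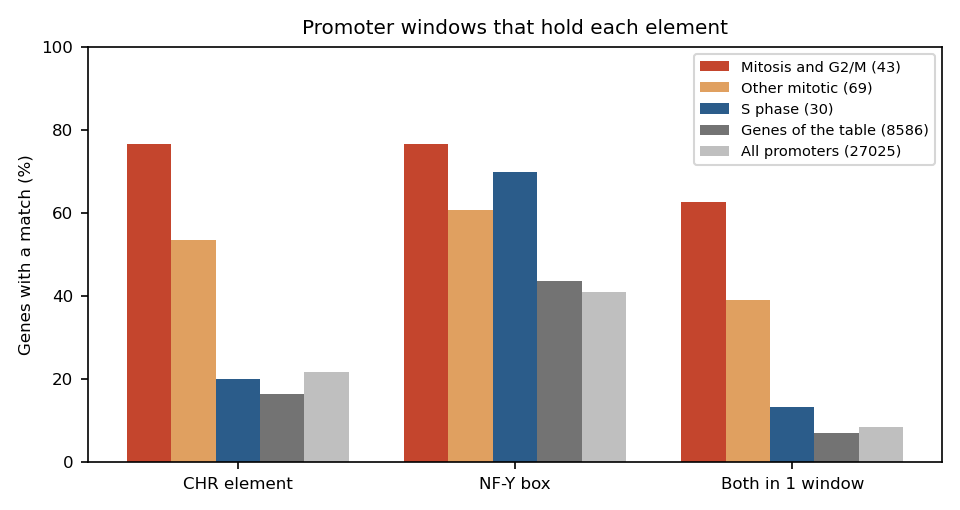
Share of promoter windows (%) that hold a CHR element, an NF-Y box, or both, for each gene list, with the number of genes that have a window in brackets. The red bars of the mitosis and G2/M genes reach 76.7% for the CHR, against 20% for S phase genes and 21.7% for all promoters.

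A CHR was found both in members that rose and in members that fell, and whether its share differs between them was not tested. Among members with a window, it was present in 4 of 5 called higher in Ikaros cells at 24 h, in 14 of 17 called lower and in 15 of 21 not called. Aurkb, Cdc25c, Smc4 and Tpx2, also called lower, and Cdca2 and Dlgap5, not called, had no window. Nusap1, the member with the largest rise at 24 h, had neither a CHR nor a CCAAT box in its window.

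Ikaros and control cells were compared at each time. The genes did not move as a block, and the direction of the calls turned over between 6 h and 24 h. At 6 h, 19 members were higher and 2 lower in Ikaros cells, with a median difference of 0.27 on the log2 scale. At 24 h, 5 were higher and 21 lower, with a median difference of -0.12. With culture batches paired in a replicate block, 10 were higher and 21 lower at 24 h, Kif11, Mki67, Nek2, Tacc3 and Ube2c being added. With 0 h in blocks of its own, 11 were higher and 21 lower. No share of all genes was taken with these blocks, so whether calls rose in general is not shown. The shares that follow come from the fit without blocks. The median difference over all genes stayed between -0.03 and 0.00 at all 6 times, and of all genes 18.1% were called higher and 19.2% lower at 6 h, 31% higher and 31.9% lower at 24 h. Of the 49 members, 7 were not called at any time, 19 were called only in the higher direction, 18 only in the lower and 5 in both.

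**Figure D2:**
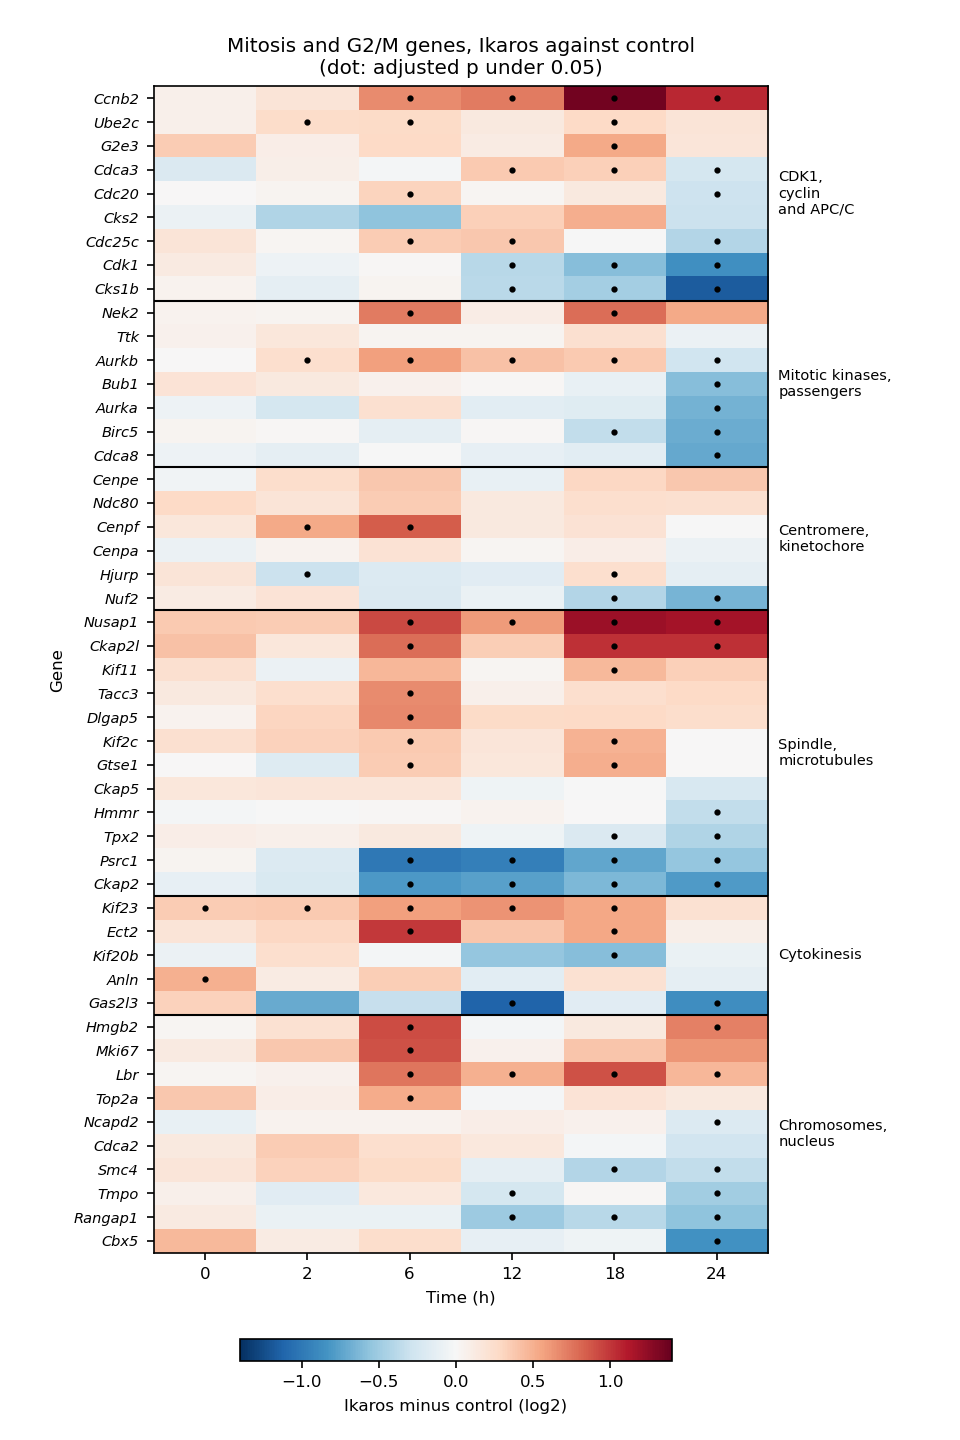
Difference between Ikaros and control cells (log2, colour) for 49 mitosis and G2/M genes (rows, grouped by role and sorted by the 24 h value) at 6 times (columns), with a dot where limma called the gene. Ccnb2, Nusap1, Ckap2l and Lbr stay red from 6 h to 24 h, and Psrc1 and Ckap2 stay blue. At 24 h, 5 of the 7 kinases and passenger proteins are blue with a dot. Ttk is faintly blue (-0.08) and Nek2 red (0.53), both without a dot.

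Before induction and at 2 h few members differed. At 0 h Anln, which encodes a scaffold of the contractile ring, was 0.50 ± 0.16 (SE) higher in Ikaros cells with an adjusted p just under the threshold, and Kif23, a motor of the central spindle, was 0.36 ± 0.10 higher (adjusted p = 0.0167). Of all genes 4.61% were called higher and 3.72% lower at 0 h. At 2 h Cenpf, Kif23, Ube2c and Aurkb were higher by 0.53, 0.36, 0.26 and 0.23, and Hjurp fell by 0.30, against 9.18% higher and 9.88% lower among all genes.

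At 12 h calls were balanced, with 7 members higher and 7 lower (23% and 22.8% of all genes). At 18 h, 15 were higher and 10 lower (29% and 29.2% of all genes), and the median difference was 0.19. The highest difference of the series fell at 6 h for 17 members and at 18 h for 11, while the lowest fell at 24 h for 25 of the 49. An F test over the 5 changes from 0 h called 27 members, or 55.1%, against 59.8% of all genes.

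**Figure D3:**
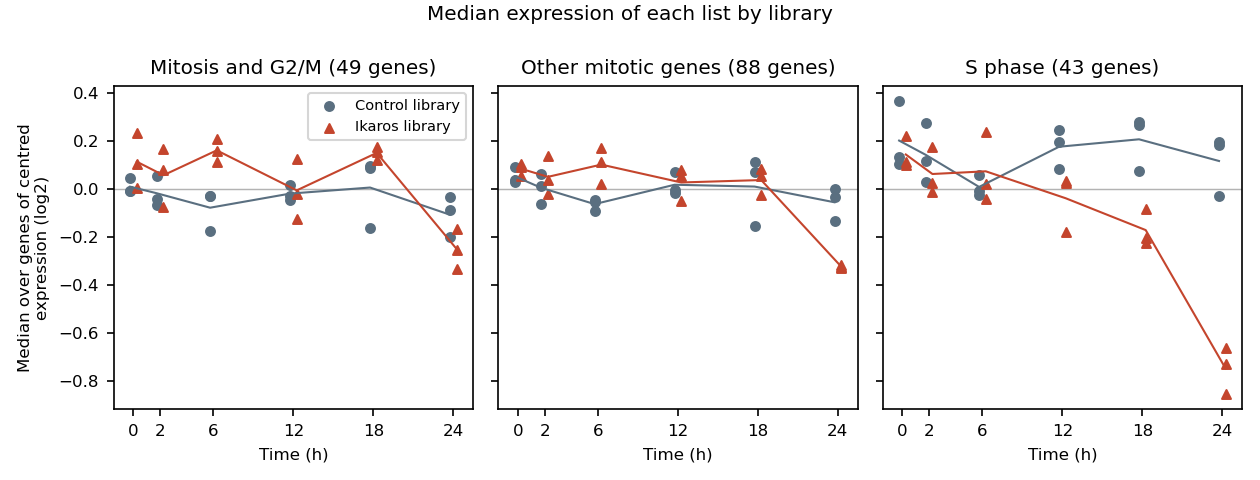
Median over the genes of each list of expression centred on the gene's mean (log2) in each library against time (h), with circles for control libraries, triangles for Ikaros libraries and lines through the means of 3. For mitosis and G2/M genes the Ikaros libraries lie above the control libraries at 6 h, from 0.11 to 0.21 against -0.17 to -0.03, and at -0.33 to -0.16 at 24 h, where they overlap the control range of -0.20 to -0.03.

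The first control library at 6 h touches several results. Per library, the median of centred member expression at 6 h was -0.17, -0.03 and -0.03 in control cells and 0.21, 0.16 and 0.11 in Ikaros cells. This library was the lowest of the 3 control libraries, and it held the lowest control values of several members. The replicates at 6 h are labelled as batches 1, 3 and 4, and their median differences were 0.39, 0.23 and 0.22. Replicate 2 is batch 2 at 0 h and batch 3 at the later times, so it is a different culture batch in contrasts with 0 h. Against their own 0 h, control cells at 6 h had Aurka, Gtse1 and Lbr lower by limma and no member higher (2.52% and 2.59% of all genes). With batches paired in a replicate block, 12 members were called in that contrast, and the share of all genes in that fit was not taken. Without that control library 17 members remained called, 15 higher and 2 lower, with a median of 0.17. Without the first replicate of all groups only 7 were called, and without the second 12. When control cells at 2, 12 and 18 h were averaged in place of control cells at 6 h, 14 members were higher and 4 lower, with a median of 0.16.

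Ikaros cells at 6 h had 8 members higher and 8 lower than at 0 h (17.1% and 15.6% of all genes). The higher ones were Cenpf, Hmgb2, Cenpe, Dlgap5, Aurkb, Cdc25c, Cdca3 and Cdc20, by 0.28 to 0.70. The lower ones were Gas2l3, Psrc1, Ckap2, Anln, Hjurp, Cbx5, Rangap1 and G2e3. The 2 lines at 6 h did not overlap in 25 of the 49 members, against 41% of all genes.

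The CDK1 module comprises the kinase, its cyclin and CKS partners, the activating phosphatase and APC/C factors. Of its 9 members, 4 were called higher at 6 h, and 1 was higher and 5 lower at 24 h, with a median of -0.30. Of all genes 18.1% were called higher and 19.2% lower at 6 h. At 24 h the shares were 31% and 31.9%. These shares are the background for the counts of the role groups that follow as well. No role group was tested against them. Ccnb2, the B-type cyclin that partners CDK1, went up while the kinase itself went down.

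Cdk1 (GRCm38 chromosome 10, 69335146 to 69352938) was at 13.26, 13.27 and 13.26 in control libraries at 24 h and at 12.31, 12.51 and 12.40 in Ikaros libraries. The groups were far apart relative to their spread, with means ± SD of 13.26 ± 0.01 and 12.41 ± 0.10 (n = 3). The difference was -0.86 ± 0.10 (SE, adjusted p = 2.52e-08), or 1.81-fold lower in Ikaros cells. The loss came in steps. Cdk1 differed by 0.01 at 6 h, by -0.39 at 12 h and by -0.60 at 18 h, and the last 2 were called.

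Cks1b (chromosome 3, 89415472 to 89418383), a small subunit that binds cyclin-dependent kinases and also serves the SCF-SKP2 ubiquitin ligase, had the largest fall of the set. Control libraries at 24 h were at 13.86, 13.98 and 14.06 and Ikaros libraries at 12.67, 12.96 and 12.77, with no overlap. It was 2.24-fold lower (log2 difference -1.17 ± 0.14, adjusted p = 3.17e-08), after 0.04 at 6 h. Its paralogue Cks2 was among the most abundant transcripts, at the 98.7 percentile of the table. Cks2 was not called at any time in the main fit, and its 6 h difference was called with eBayes trend and robust (adjusted p = 0.0494). Cks2 libraries at 6 h were at 17.68, 17.05 and 17.04 in control cells and at 16.76, 16.79 and 16.53 in Ikaros cells, separate but with 1 high control library (difference -0.56, adjusted p = 0.0597). The means of the 2 lines at 24 h were 17.22 ± 0.30 and 16.92 ± 0.21 (SD, n = 3). Counts of Cks2 and other genes with near-identical copies elsewhere in the genome could be split between copies.

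Ccnb2 (chromosome 9, 70407692 to 70421547) ran the other way. At 0 h the lines were close, at 14.83, 14.84 and 14.86 in control and 14.89, 14.96 and 14.90 in Ikaros libraries. By 18 h control libraries were at 14.93, 14.75 and 14.29 and Ikaros libraries at 15.84, 16.03 and 16.15, a 2.56-fold difference (1.35 ± 0.19, adjusted p = 1.18e-06). At 24 h control libraries were at 14.68, 14.74 and 14.28 and Ikaros libraries at 15.72, 15.41 and 15.74. Every Ikaros library was above every control library at both times, and Ccnb2 was 2.08-fold higher at 24 h (1.06 ± 0.19, adjusted p = 3.24e-05). At 6 h the difference was 0.66 (adjusted p = 0.00879), from 14.54, 14.65 and 14.20 in control to 15.37, 15.13 and 14.86 in Ikaros libraries. That call at 6 h was lost without the first replicate (adjusted p = 0.122) or the second (adjusted p = 0.0825).

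Cdc25c, the phosphatase that activates CDK1, and Cdc20, an activator of the APC/C, crossed from higher to lower. Cdc25c libraries at 6 h were at 12.51, 12.75 and 12.57 in control and at 13.10, 13.01 and 12.78 in Ikaros cells, and at 24 h at 12.60, 12.51 and 12.73 against 12.19, 12.11 and 12.33. The order of the lines was the opposite at the 2 times, with differences of 0.35 (adjusted p = 0.0107) and -0.41 (adjusted p = 0.00165). The 6 h call of Cdc25c was lost without the first control library at 6 h (adjusted p = 0.0539) and without the first or second replicate of all groups (adjusted p = 0.264 and 0.0645). Cdc20 libraries at 6 h were at 14.95, 14.98 and 14.98 in control and at 15.16, 15.26 and 15.43 in Ikaros cells. At 24 h they were at 14.97, 14.91 and 14.86 against 14.72, 14.44 and 14.69. The differences of 0.31 and -0.30 were small but outside the range of the libraries at each time, although the 6 h call was lost without any single replicate number and the 24 h call without the second (adjusted p = 0.179). Between 6 h and 24 h the difference changed by -0.76 for Cdc25c and by -0.61 for Cdc20 (adjusted p = 0.000211 and 0.000413).

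Ube2c, the ubiquitin-conjugating enzyme of the APC/C, was higher at 2, 6 and 18 h by 0.26 to 0.28. The 6 h call of Ube2c was lost without the first control library at 6 h (adjusted p = 0.0507) and without replicate 1 or 2 (adjusted p = 0.199 and 0.102), and its 24 h difference of 0.18 was called with the replicate block (adjusted p = 0.0375). Cdca3, a trigger of mitotic entry, was higher at 12 h and 18 h by 0.37 and 0.34 and differed by -0.24 at 24 h, where dropping replicate 1 or 2 ended the call (adjusted p = 0.198 and 0.0875). G2e3, a ubiquitin ligase, was called higher at 18 h only, by 0.53.

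**Figure D4:**
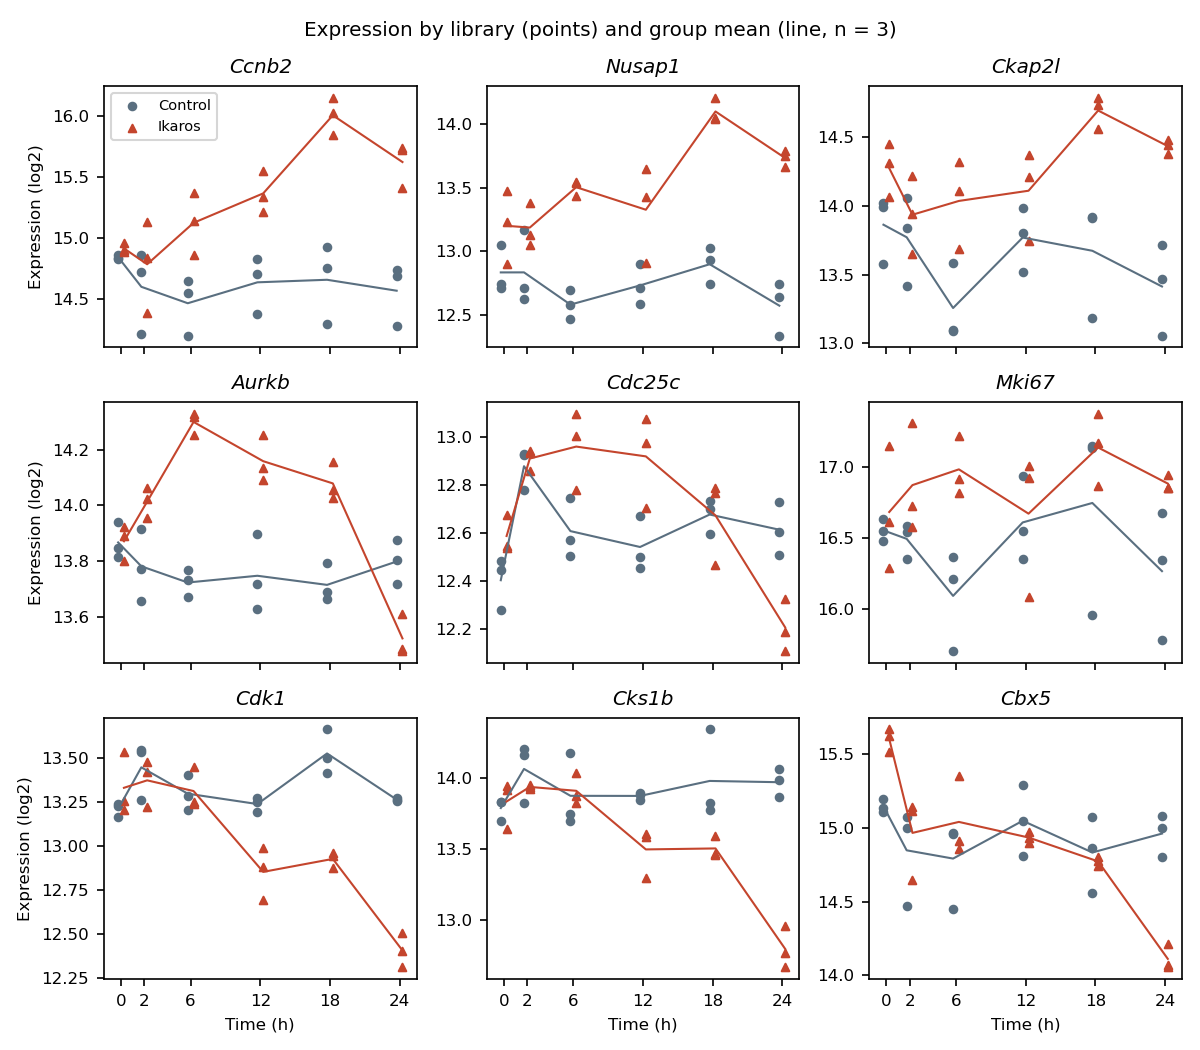
Expression (log2) of 9 genes in each library against time (h), with circles for control libraries, triangles for Ikaros libraries and lines through the means of 3, each panel on its own vertical scale. Ccnb2 and Nusap1 separate upward from 6 h, Aurkb and Cdc25c lie above control at 6 h and below it at 24 h, and Cdk1 and Cks1b separate downward from 12 h.

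Among the 7 mitotic kinases and chromosomal passenger proteins, 2 were higher at 6 h, and none was higher and 5 lower at 24 h, with a median of -0.59. Aurkb, the kinase of the chromosomal passenger complex, was at 13.77, 13.73 and 13.67 in control libraries at 6 h and at 14.32, 14.33 and 14.25 in Ikaros libraries. The 6 values left a wide gap between the lines, at a 1.49-fold difference (0.58 ± 0.08, adjusted p = 1.77e-06). At 24 h the values were 13.88, 13.80 and 13.72 in control and 13.48, 13.61 and 13.48 in Ikaros libraries. Aurkb was then 1.21-fold lower (adjusted p = 0.00317), a call that was lost without the first replicate (adjusted p = 0.0907). Its change between the 2 times, -0.85 ± 0.11, had the smallest adjusted p of the members for that contrast (6.72e-07).

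The passenger partners of Aurkb were not called at 6 h. Birc5, which encodes survivin, was at 14.59, 14.54 and 14.55 in control and 14.34, 14.60 and 14.36 in Ikaros libraries at 6 h, with overlap, and Cdca8, which encodes borealin, differed by 0.00. At 24 h Birc5 was at 14.44, 14.41 and 14.44 in control and 13.73, 13.81 and 13.67 in Ikaros libraries, and Cdca8 at 14.57, 14.50 and 14.70 against 13.93, 13.99 and 13.71. Both had separated, by -0.69 and -0.71 (adjusted p = 1.21e-08 and 6.09e-06). Aurka, the kinase of centrosomes and spindle poles, fell by 0.66, and Bub1, a kinase of the spindle checkpoint, fell by 0.59 at 24 h. Nek2, a kinase of centrosome separation, was higher by 0.73 at 6 h and 0.78 at 18 h. The 6 h call of Nek2 was lost without replicate 1 or 2 (adjusted p = 0.162 and 0.143) and with the averaged control (adjusted p = 0.0952), and the 24 h difference of 0.53 was called with the replicate block (adjusted p = 0.0205). Replicate 3 of control cells at 18 h was low for Nek2, with 12.66, 12.49 and 11.68 in control and 13.09, 13.02 and 13.05 in Ikaros cells. Ttk, the MPS1 checkpoint kinase, was not called at any time in the main fit. With the averaged control Ttk was called lower at 24 h (-0.27, adjusted p = 0.0431).

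Of 6 centromere and kinetochore genes, 1 was called at 6 h and 1 at 24 h. Cenpa, the histone variant that marks centromeres, was at 14.17, 14.03 and 14.26 in control and 14.13, 14.03 and 14.06 in Ikaros libraries at 24 h. At 6 h it was at 14.09, 14.21 and 14.20 in control and 14.07, 14.60 and 14.45 in Ikaros libraries. The lines overlapped at both times, and the differences of -0.08 and 0.21 were not called (adjusted p = 0.724 and 0.388). Cenpf, a large kinetochore protein, was higher at 2 h and at 6 h, with 12.63, 13.18 and 13.26 in control and 13.70, 13.89 and 14.03 in Ikaros libraries at 6 h. The lowest Ikaros library stood above the highest control library, at 1.81-fold in the means (adjusted p = 8.96e-05). At 24 h the difference was -0.01.

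The 2 globular partners of the NDC80 complex, which holds microtubules at the kinetochore, gave different calls. Nuf2 at 24 h was at 12.99, 13.02 and 12.93 in control and 12.24, 12.48 and 12.27 in Ikaros libraries (-0.65 ± 0.11, adjusted p = 8.19e-06). Ndc80 was at 12.03, 12.09 and 11.18 in control and 12.07, 11.91 and 12.00 in Ikaros libraries. Control replicate 3 was low, and Ndc80 was not called at any time in the main fit. With replicate 3 of all groups left out, Ndc80 was called higher at 6 h (0.59, adjusted p = 0.0272). The difference between these 2 genes was not tested. Hjurp, the chaperone that loads CENP-A, was lower at 2 h and higher by 0.24 at 18 h, and Cenpe, a kinetochore motor, was not called against control at any time.

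Spindle genes held the largest rise of the set at 24 h and its largest fall at 6 h. Of 12, 6 were higher and 2 lower at 6 h, and 2 were higher and 4 lower at 24 h. Nusap1 (chromosome 2, 119618298 to 119651244), which bundles spindle microtubules near chromosomes, was at 12.58, 12.70 and 12.47 in control and 13.54, 13.54 and 13.43 in Ikaros libraries at 6 h. At 24 h it was at 12.74, 12.64 and 12.34 in control and 13.66, 13.79 and 13.75 in Ikaros libraries. The Ikaros values were tight and clear of control at both times. Nusap1 was 1.90-fold higher at 6 h and 2.24-fold higher at 24 h (1.16 ± 0.17, adjusted p = 8.96e-07). At 0 h Nusap1 was higher by 0.37 in Ikaros cells without being called, and the change from 0 h to 24 h was 0.79 (adjusted p = 0.00647).

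Ckap2l (chromosome 2, 129268210 to 129297212), a protein of the mitotic spindle, was at 13.72, 13.47 and 13.06 in control and 14.48, 14.44 and 14.38 in Ikaros libraries at 24 h. It was 2.03-fold higher (1.02 ± 0.22, adjusted p = 0.000277). At 6 h Ckap2l was at 13.09, 13.58 and 13.10 in control and 14.32, 14.10 and 13.69 in Ikaros libraries. That difference of 0.78 was called (adjusted p = 0.00756), but not without the first replicate (adjusted p = 0.199), without the second (adjusted p = 0.0573) or with control cells at 2, 12 and 18 h averaged (0.30, adjusted p = 0.203). Against its own 0 h this gene showed no called change in Ikaros cells at 24 h, and it already differed by 0.41 at 0 h without a call. Its related gene Ckap2, another spindle protein, went down. Ckap2 at 6 h was at 12.70, 12.78 and 12.66 in control and 12.17, 11.94 and 11.62 in Ikaros libraries, and at 24 h at 12.72, 12.90 and 12.72 against 11.91, 12.01 and 12.05. No library of one line reached the other. The difference was -0.80 at 6 h (adjusted p = 7.15e-06) and -0.79 at 24 h (adjusted p = 1.98e-06), and it was called at each time from 6 h on.

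Psrc1 (chromosome 3, 108383839 to 108388231), a microtubule-associated protein of the spindle and one of the least abundant members, also fell early. At 6 h it was at 11.16, 11.56 and 11.83 in control and 10.33, 10.49 and 10.73 in Ikaros libraries, and at 24 h at 11.19, 11.27 and 10.996 against 10.49, 10.71 and 10.62. Psrc1 had the largest fall of the set at 6 h (-1.001 ± 0.18, adjusted p = 0.000108), and it was still lower by -0.54 at 24 h (adjusted p = 0.0119), a call lost without the first or the second replicate (adjusted p = 0.118 and 0.0947). Psrc1 and Ckap2 were the members lower at both 6 h and 24 h.

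Tacc3 and Dlgap5, which stabilize spindle microtubules, were higher at 6 h by 0.66 and 0.67 and not called later. Both 6 h calls were lost without replicate 1 (adjusted p = 0.0715 for Tacc3 and 0.0577 for Dlgap5), and Tacc3 was called higher at 24 h with the replicate block (adjusted p = 0.0485). Kif2c, a microtubule-depolymerizing motor, and Gtse1, which restrains it, were higher at 6 h and 18 h. Neither 6 h call held without replicate 1 (adjusted p = 0.164 for Kif2c and 0.172 for Gtse1) or without replicate 2 (0.146 and 0.0684). Kif2c was also lost without the first control library at 6 h (adjusted p = 0.0683) and Gtse1 with the averaged control (adjusted p = 0.0898). Kif11, the motor that separates spindle poles, was higher at 18 h by 0.45. Kif11 differed by 0.47 at 6 h and 0.33 at 24 h, and both were called with the replicate block (adjusted p = 0.00823 and 0.0376). Tpx2, which activates Aurora A, was lower at 18 h and 24 h, and Hmmr was lower at 24 h by -0.35 with overlapping libraries, a call lost without replicate 1 or 2 (adjusted p = 0.188 and 0.221). Ckap5, a microtubule polymerase, was not called at any of the times in the main fit. Without replicate 3 it was called higher at 6 h (0.32, adjusted p = 0.0302) and lower at 24 h (-0.28, adjusted p = 0.0315). With the averaged control it was lower at 24 h (-0.28, adjusted p = 0.00814).

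Of 5 genes of cytokinesis, Ect2 and Kif23 were higher at 6 h and Gas2l3 was lower at 24 h. Ect2, the exchange factor that sets the cleavage plane, was at 11.52, 12.24 and 12.09 in control and 13.17, 12.74 and 12.90 in Ikaros libraries at 6 h, the largest rise of the set at that time (0.99 ± 0.20, adjusted p = 0.000273). The first control library was the lowest of all 36 for Ect2, and the 3 batches gave 1.66, 0.50 and 0.81. The call was lost without the first replicate of all groups (0.66, adjusted p = 0.0710). At 24 h control libraries were at 12.39, 12.48 and 11.97 and Ikaros libraries at 12.46, 12.09 and 12.53, fully overlapping. Kif23 was higher at each time from 0 h to 18 h, by 0.36 to 0.63, and not called at 24 h (0.21, adjusted p = 0.0526). The lines did not overlap for Kif23 at 24 h. That difference was called in limma with 0 h in blocks of its own (adjusted p = 0.0495) and with eBayes trend and robust (0.0491). It was also called among genes at or above the 25th percentile (0.0467).

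Gas2l3, a linker of actin and microtubules at the midbody, was lower at 12 h and 24 h. At 24 h it was at 12.98, 13.03 and 12.87 in control and 12.00, 12.28 and 12.00 in Ikaros libraries, 1.82-fold lower (adjusted p = 0.0134), but not called when control cells at 2, 12 and 18 h were averaged as the control (adjusted p = 0.0825) or without the first or the second replicate (adjusted p = 0.109 and 0.0902). At 6 h it was at 12.36, 12.40 and 11.82 in control and 12.34, 11.87 and 11.40 in Ikaros libraries, an overlap that left the difference of -0.32 uncalled. With the averaged control the 6 h difference was called (-0.70, adjusted p = 0.0219). Kif20b, a kinesin of late cytokinesis, was lower at 18 h by -0.59 with overlapping libraries. With the averaged control Kif20b was also called lower at 24 h (-0.52, adjusted p = 0.0163). Anln differed by 0.34 at 6 h without a call (adjusted p = 0.0916), and was called there with the replicate block (adjusted p = 0.0457).

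Genes of chromosomes and the nuclear envelope gave 4 higher and none lower at 6 h, and 2 higher and 5 lower at 24 h. Mki67, the Ki-67 antigen that coats mitotic chromosomes, was at 15.70, 16.37 and 16.21 in control and 17.22, 16.92 and 16.82 in Ikaros libraries at 6 h. The lines were apart, and the first batch gave 1.52 against 0.55 and 0.61 in the others. The difference of 0.89 was called (adjusted p = 0.0176), but not without the first control library (0.70, adjusted p = 0.0993), without the first or second replicate of all groups (adjusted p = 0.263 and 0.0830) or with the averaged control (0.37, adjusted p = 0.231). At 24 h Mki67 was at 16.68, 16.35 and 15.78 in control and 16.94, 16.86 and 16.86 in Ikaros libraries (0.62, adjusted p = 0.0673). The 24 h difference was called once culture batches were fitted as blocks of paired libraries (adjusted p = 0.0365).

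Top2a, the topoisomerase that untangles sister chromatids, was at 15.04, 15.37 and 15.36 in control and 16.002, 15.63 and 15.71 in Ikaros libraries at 6 h (0.52, adjusted p = 0.00464), and at 24 h at 15.51, 15.46 and 15.16 against 15.60, 15.48 and 15.48. The first library again gave the lowest control value at 6 h, and without the first replicate of all groups Top2a was not called (adjusted p = 0.145), nor with the averaged control (0.17, adjusted p = 0.256). Hmgb2, a chromatin protein, was at 15.06, 15.93 and 15.90 in control and 16.21, 16.70 and 16.71 in Ikaros libraries at 6 h, and at 24 h at 15.73, 15.68 and 15.15 against 16.06, 16.27 and 16.34. It was 1.88-fold higher at 6 h (adjusted p = 0.00226) and 1.63-fold higher at 24 h (adjusted p = 0.00821), the latter lost without replicate 3 (adjusted p = 0.194) and with the averaged control (0.19, adjusted p = 0.376). Lbr, the lamin B receptor of the inner nuclear membrane, was higher at each time from 6 h on, by 0.46 to 0.90, although the 6 h and 24 h calls were lost without the first replicate (adjusted p = 0.0530 and 0.0817).

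Cbx5 (chromosome 15, 103191544 to 103239816), which encodes heterochromatin protein HP1 alpha, was at 14.997, 15.08 and 14.80 in control and 14.21, 14.07 and 14.06 in Ikaros libraries at 24 h. The groups were well apart, at 1.80-fold (-0.85 ± 0.17, adjusted p = 8.31e-05). At 0 h it was higher in Ikaros cells by 0.46 without a call, so the change from 0 h to 24 h was larger, at -1.30 ± 0.24 (adjusted p = 4.96e-05), the largest fall of the set for that contrast. Rangap1, a GTPase activator bound at kinetochores, was lower from 12 h on, by -0.38 to -0.57. Tmpo, a lamina-associated protein, fell by 0.48 at 24 h, and the condensin subunits Smc4 and Ncapd2 were lower by 0.35 and 0.19. The call of Smc4 was lost without replicate 1 or 2 (adjusted p = 0.188 and 0.139), and that of Ncapd2 without any single replicate number (adjusted p from 0.107 to 0.163). Cdca2, which anchors a phosphatase to chromatin, was not called in the main fit. With the averaged control Cdca2 was called lower at 24 h (-0.46, adjusted p = 0.00259).

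The switch between 6 h and 24 h was tested directly with a contrast that uses no 0 h library. The difference between lines fell in 20 members and rose in none at an adjusted p under 0.05, with a median change of -0.37 over the 49, against 20.7% of all genes lower and 19.7% higher. The steepest were Cks1b, Cbx5, Ect2, Aurka, Cdk1, Cenpf and Aurkb, from -1.20 to -0.85. By the calls at the 2 times, Nusap1, Ccnb2, Ckap2l, Hmgb2 and Lbr were higher at both, Aurkb, Cdc20 and Cdc25c went from higher to lower, 16 members went from no call to lower and 11 from higher to no call. These classes share no test of their own. Without the first control library at 6 h, 17 members were called in this contrast, and the share of all genes in that fit was not taken.

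**Figure D5:**
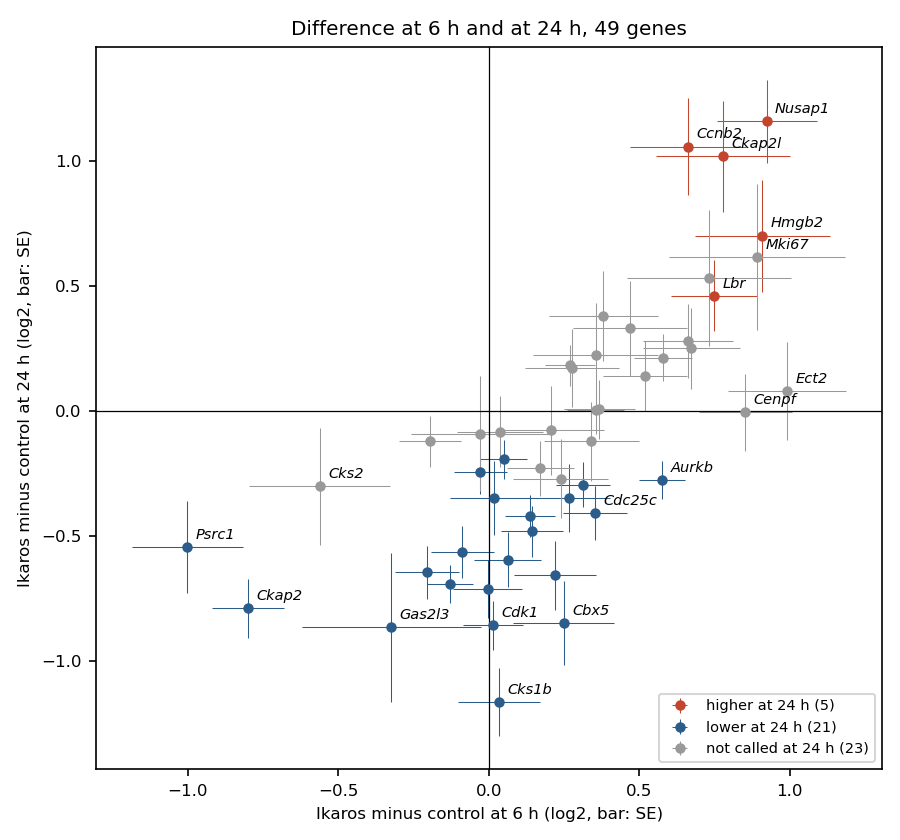
Difference between Ikaros and control cells (log2) at 6 h (horizontal axis) and at 24 h (vertical axis) for 49 genes, with bars for the standard error and colour for the call at 24 h. Nusap1, Ccnb2 and Ckap2l lie at the upper right, and Cks1b and Cdk1 lie near 0 at 6 h and at -1.17 and -0.86 at 24 h, with Cbx5 at 0.25 and -0.85.

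Changes of the difference from 0 h were tested as well. From 0 h to 6 h the difference rose in Ect2, Lbr, Cenpf and Aurkb, by 0.81, 0.72, 0.69 and 0.57, and fell in Psrc1 and Ckap2, by 1.04 and 0.68 (7.72% of all genes rose and 8.14% fell). The members changed in 12.2% of cases against 15.9% of all genes, so this contrast does not show them moving more often than other genes. These 6 calls came to 2 without the first replicate and to 0 without the second, and to 12 with the replicate block in which 0 h had blocks of its own. From 0 h to 24 h it rose in Ccnb2 and Nusap1 and fell in 18 members (24.2% of all genes in each direction). Against their own 0 h, Ikaros cells at 24 h had 29 members lower and only Ccnb2 and Nusap1 higher, by 0.71 and 0.53 (29.6% and 31% of all genes). The largest falls there were Cbx5 at -1.49, Cks1b at -1.03, Anln at -0.97 and Cdk1 at -0.93. Anln was already higher in the Ikaros line at 0 h, where these contrasts begin. Control cells at 24 h had 1 member called against 0 h. The share of all genes in that contrast is not given here, so the count does not show that the members in particular stayed still. These contrasts share libraries with the comparison between lines and are given beside it, not as separate evidence. At 24 h, 33 of the 49 members did not overlap between lines, against 71% of all genes.

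Other genes of the mitotic program, 88 in number, were listed with earlier results of these data known. They were read in the same 36 libraries and turned in the same direction, which is not separate evidence. At 6 h 24 were higher and 8 lower (median 0.21), and at 24 h 12 were higher and 41 lower (median -0.27). For all genes the shares were 18.1% higher and 19.2% lower at 6 h, and 31% and 31.9% at 24 h. The largest falls at 24 h were Pbk, a mitotic kinase, at -1.396, Cenpi, a centromere protein, at -1.27, and Ccnb1, the other main B-type cyclin, at -1.25. Ccnb1 was at 14.32, 14.35 and 13.97 in control and 13.09, 13.02 and 12.78 in Ikaros libraries at 24 h, so that cyclins B1 and B2 stood on opposite sides of control. Its fall was already called at 6 h (-0.93, adjusted p = 1.00e-05), when Ccnb2 was higher. The largest rises were Cdc25b, a phosphatase that activates CDK1, at 1.42, Cenpt, a kinetochore anchor, at 0.99, and Cdc27, an APC/C subunit, at 0.86.

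Of 12 genes of the MuvB, B-Myb, FoxM1 and DREAM complexes, 4 were higher and 1 lower at 6 h, and 2 were higher and 4 lower at 24 h. The shares of all genes were 18.1% higher and 19.2% lower at 6 h, and 31% and 31.9% at 24 h. Whether the 12 genes differ from these shares was not tested. Mybl2, which encodes B-Myb, was at 14.65, 14.75 and 14.64 in control and 12.63, 12.96 and 12.72 in Ikaros libraries at 24 h. It was 3.75-fold lower (-1.91 ± 0.09, adjusted p = 2.84e-16), a larger fall than that of any of the 49 members. Tfdp1, the dimer partner of E2F proteins, and E2f4 each fell by 0.93. Lin37, a MuvB subunit, rose by 0.63 and Rbl2, which encodes p130, by 0.51, while E2f5 was higher by 0.51 without a call. Foxm1, named here after its values were seen, was higher by 0.44 at 6 h (adjusted p = 0.000107) and differed by -0.01 at 24 h.

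S phase genes were read beside the mitotic ones. Of 43, 6 were higher and 4 lower at 6 h (median 0.11), and none was higher and 40 lower at 24 h (median -0.87). Among all genes 18.1% were higher and 19.2% lower at 6 h, and 31% and 31.9% at 24 h. Tyms, thymidylate synthase, fell by 2.97, the chromatin remodeler Hells by 2.23 and the uracil glycosylase Ung by 2.01. Among the smallest differences were -0.07 for Ubr7, which was not called, and -0.18 for Rfc2, which was. At 12 h, 13 S phase genes were lower and 1 higher when the mitosis and G2/M genes had 7 calls in each direction, and at 18 h 24 were lower and none higher against 10 and 15. Among all genes 23% were higher and 22.8% lower at 12 h, and 29% and 29.2% at 18 h. The counts of the 2 lists are set side by side and their difference was not tested.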

How the data were processed

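Messenger RNA was measured in 36 libraries by stranded paired-end sequencing. The authors aligned reads to mm10 with TopHat2 and counted genes with HTSeq (versions not given in the sources used here), then applied cqn for GC content and length and non-parametric ComBat for library preparation. The deposited values are log2, the base being that of cqn, with a constant added so that the lowest is 1. ComBat was run before deposit, which can make the errors of a later fit too small. The strand setting of the counting is not given in the sources used here, so values of overlapping genes and of near-identical copies are uncertain. No value column was left unmapped.

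Groups came from the labels. One limma 3.58.1 model (R 4.3.3; lmFit, contrasts.fit, eBayes) with a mean for each of 12 groups gave two-sided p-values, adjusted by Benjamini-Hochberg over 12762 genes. The replicates are culture batches (1, 2 and 4 at 0 h and 1, 3 and 4 later). The model treats all libraries as independent, although libraries of 1 batch share a culture. Its p-values rest on the spread of libraries within groups, where differences between batches and between flasks are mixed. All 49 members passed the low-value filter used as an alternative (9571 genes at or above the 25th percentile). The script was tested on simulated data. The members and lists were chosen with earlier results of these data known. Library values were given for the 4 largest rises and falls at 6 h and 24 h and for Cdk1, Ccnb2, Aurkb, Mki67, Top2a, Cdc20, Cdc25c and Cenpa, and added for Birc5, Cdca8, Cenpf, Nek2, Nuf2 and Ndc80 after their values were seen. In the other lists the 3 largest rises and falls at 24 h were named. Some genes of these lists are not reported here. Gene positions came from GENCODE on GRCm38.

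Batch numbers in the labels pair control and Ikaros libraries. Deviations of the 18 pairs from their group means correlated across all genes at -0.06 to 0.51 (median 0.13), and 12 were above 0.1. Across the members alone the range was wider, from -0.38 to 0.84. Member values by replicate were 0.48, 0.70 and 0.84 at 2 h and 0.39, -0.11 and 0.65 at 6 h. At 24 h they were 0.24, -0.38 and -0.26. The main fit, which has no blocks, does not use this pairing. The alternatives included a replicate block of culture batch (also with 0 h in blocks of its own), the filter, quantile normalization, centred medians, eBayes trend and robust, fits of only the compared groups, and leaving out each replicate. Leaving out the first control library at 6 h and averaging control cells at 2, 12 and 18 h were added after the data were seen.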

Additional observations from a re-analysis of the deposited data

Results flagged for a closer look

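The results here are those where the difference between Ikaros and control cells changed between times by a test of the change itself. Relative to 0 h it had changed in 6 members by 6 h and 8 by 12 h. The count was 15 by 18 h and reached 20 by 24 h. These are 12.2, 16.3, 30.6 and 40.8% of the members, and 15.9, 29.7, 43.03 and 48.4% of all genes had changed at the same times. An F test on the 5 changes together called 27 members (55.1%, against 59.8% of all genes). From 6 h to 24 h it changed in 20 members, all downward, or 40.8% against 40.4% of all genes. Among the CDK1 and APC/C genes these were Cks1b (-1.20), Cdk1 (-0.87), Cdc25c (-0.76) and Cdc20 (-0.61). Among the kinases and passenger proteins they were Aurka (-0.88), Aurkb (-0.85), Cdca8 (-0.71), Bub1 (-0.66) and Birc5 (-0.56). The kinetochore genes Cenpf (-0.86) and Nuf2 (-0.44), the spindle genes Tpx2 (-0.56), Ckap5 (-0.40) and Gtse1 (-0.35), and the cytokinesis genes Ect2 (-0.91) and Kif23 (-0.37) were also called. Genes of chromosomes and the nuclear envelope were Cbx5 (-1.10), Tmpo (-0.63), Smc4 (-0.61) and Rangap1 (-0.48).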

How the results depend on the processing

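Single members were followed under the alternatives at 6 h and 24 h only, and no call between lines reversed direction there. The low-value filter and eBayes trend settings kept each count of calls within 1.5 times. Differences at 6 h were the less stable. Leaving out 1 replicate number from all groups, or the first control library at 6 h, the members called between lines ranged from 0 to 2 at 0 h (2 with all libraries), 0 to 6 at 2 h (5), 7 to 24 at 6 h (21), 7 to 13 at 12 h (14), 14 to 20 at 18 h (25) and 18 to 25 at 24 h (26). The fall to 7 was without replicate 1. For changes of the difference from 0 h the ranges were 0 to 1 at 2 h (0), 0 to 4 at 6 h (6), 0 to 10 at 12 h (8), 4 to 15 at 18 h (15) and 10 to 21 at 24 h (20). From 6 h to 24 h it was 12 to 26 (20), and for the F test 8 to 25 (27), the lowest without replicate 2. Ikaros cells against 0 h ranged from 1 to 8 at 2 h (14), 6 to 12 at 6 h (16), 7 to 14 at 12 h (16), 7 to 20 at 18 h (17) and 20 to 32 at 24 h (31). Control cells against 0 h ranged from 0 to 1 at 6 h (3), and gave 0 at 18 h and 24 h (1 each). The median difference ranged from 0.13 to 0.30 at 6 h (0.27) and from -0.19 to -0.11 at 24 h (-0.12), and with the averaged control it was 0.16 and -0.22.

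With the replicate block the members higher at 24 h numbered 10, against 5 without it, and 11 with separate 0 h blocks. With this block, which pairs libraries of a culture batch, 2 members changed from 0 h to 2 h, and control cells had 12 members called at 6 h and 0 at 24 h against 0 h. With separate 0 h blocks in the replicate block, 4 were called at 0 h, 2 changed from 0 h to 2 h and 12 from 0 h to 6 h. Fitting only the groups compared left 0 at 2 h, 11 at 6 h and 9 at 12 h between lines, 2 and 7 for Ikaros cells at 2 h and 6 h against 0 h, and 0 for control cells at 6, 18 and 24 h. Fewer libraries enter that fit. Centred library medians gave 1 at 0 h and, like quantile normalization, 0 for control cells at 24 h. For the other counts that moved, the cause was not tested. Shares of all genes were not taken under the alternatives, so a gain or loss of calls may not be particular to the members.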

Other observations

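Gene length and GC content were set beside the differences of the 49 members as a description. At 6 h Pearson's r across members was -0.10 with transcript GC content and 0.26 with the log2 length of the longest transcript, and at 24 h -0.09 and 0.11, where the members share libraries and are not independent. At 0 h the values were larger, at -0.34 and 0.40, while over the 12592 genes with a position they were 0.02 and 0.06.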
